A study of Drosophila melanogaster with 2 samples.

Results

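Chromatin immunoprecipitation followed by sequencing mapped Inv-eGFP, a fusion of the homeodomain protein Invected with enhanced green fluorescent protein, in whole Drosophila melanogaster embryos aged 0 to 24 h. The strain carried the tagged inv insertion, the antibody recognised GFP, and the 1 group held 2 biological replicates with no second genotype or treatment. The 0 to 24 h collections mixed all embryonic stages and tissues. The authors pooled both replicates and ranked their peaks by the irreproducible discovery rate (IDR), which measures how consistently a peak ranks between sets of reads. A low IDR marks a peak that keeps its rank, and the sets compared for each list are not stated in the labels. The deposited score is a rescaled IDR that runs up to 1000, and the lowest score in the thresholded list was 830, an IDR of 0.01. The peaks described here, called marginal, missed that threshold narrowly in the pooled ranked list that holds the whole thresholded list. They were chosen on a score of 540 to 829, an IDR of about 0.05 to 0.01, and they numbered 1665 of the 136905 ranked peaks on the X, chromosome 4 and both arms of chromosomes 2 and 3. The thresholded list, called listed, held 3393 peaks on the same arms, and 131741 ranked peaks scored below the marginal range. Across the ranked list, 2.56% of peaks reached the lowest listed score, and by the choice of members no marginal peak did. Another 106 ranked peaks on the arms reached that score but were not in the list. In the other pooled ranked list, 382 of the 1665 marginal peaks (22.9%) scored in the same range. There, 1200 (72.1%) scored below it and 38 (2.28%) reached the lowest listed score, so the near miss was mostly not kept between the lists. Library depth is unknown.

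Engrailed and Invected are paralogous homeodomain proteins encoded side by side, and they specify the posterior compartment of each segment. Homeodomains of the Engrailed class recognise short AT-rich sites with the core TAATTA. The word TATCGA is part of the DNA replication-related element, a promoter sequence of many widely expressed fly genes that is bound by the factors DREF and BEAF-32. Many fly promoters of that type lack a TATA box and lie close to the promoter of a divergent neighbour. Chromatin immunoprecipitation signal over a site can arise from direct binding or from contact through other chromatin proteins, and peak lists do not separate them.

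Windows of 50 bp on each side of the summit show what the marginal sites looked like beside the strongest listed sites. Capitals mark any of the 10 searched words of 6 letters on either strand. They were the homeodomain core TAATTA with its variants TAATTG and TGATTA, then TATCGA, the E-boxes CAGCTG and CACGTG, the zinc-finger site AGATAA, the repeat GAGAGA, the Zelda word CAGGTA, and TGACGT. Neighbouring matches run together, and all windows are on the plus strand of the Release 6 genome (dm6) from RefSeq. The first 5 are marginal and the last pair is listed, named by the gene with the nearest transcription start site (TSS).
Vps33B, chr3R:25473282-25473382: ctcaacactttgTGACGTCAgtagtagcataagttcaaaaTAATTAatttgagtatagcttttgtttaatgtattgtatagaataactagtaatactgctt
Alr, chrX:19748717-19748817: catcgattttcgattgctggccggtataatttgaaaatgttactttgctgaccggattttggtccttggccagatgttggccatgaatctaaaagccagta
Clp, chr2L:819855-819955: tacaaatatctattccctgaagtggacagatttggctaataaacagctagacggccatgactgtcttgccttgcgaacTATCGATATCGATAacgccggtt
Argk2, chr3L:9044597-9044697: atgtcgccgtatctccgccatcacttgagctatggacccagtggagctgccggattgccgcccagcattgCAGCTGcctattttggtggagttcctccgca
CG1090, chr3R:4360833-4360933: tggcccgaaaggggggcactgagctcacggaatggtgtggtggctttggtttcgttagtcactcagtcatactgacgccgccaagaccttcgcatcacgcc
RpL32, chr3R:30046177-30046277: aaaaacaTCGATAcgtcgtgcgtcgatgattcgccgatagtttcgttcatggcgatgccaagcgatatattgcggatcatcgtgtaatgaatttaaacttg
RhoGAP93B, chr3R:21097848-21097948: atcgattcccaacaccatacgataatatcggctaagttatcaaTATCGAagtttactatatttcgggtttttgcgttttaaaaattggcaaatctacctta

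Among the 5 marginal windows, the one at Clp held TATCGA and the one at Vps33B held TAATTA, while the windows at Alr and CG1090 held none of the 10 words. Both listed windows held TATCGA. The coding-exon window at Argk2 and the window at CG1090 each had a GC content of 58.4%, and the window at Vps33B had 27.7%. The windows came from among the strongest marginal peaks, where they overlapped no annotated untranslated region (UTR), so they are examples and not a sample of all members.

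The marginal peaks were weak and uniform in the authors' deposited signal, which measures peak height on a scale that is not stated. Their signal values had a median of 57.5 and quartiles of 50.1 and 63.6, against a median of 132 and quartiles of 82.5 and 272 in listed peaks. The extremes ran from 2.12 to 338 in marginal peaks and from 2.07 to 3141 in listed peaks. These ranges overlapped almost wholly at their low end. Signal and score come from the same reads, so this difference is a description of the choice. Both quartiles of the width were 424 bp in marginal peaks, and they were 320 and 424 bp in listed peaks. Merging overlapping marginal peaks left 1499 regions.

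At the upper end of the range, the closest marginal peaks had a score of 829. They lay 158 bp from a TSS of CG6659 with a signal of 60.0, 3053 bp from the TSS of sano with 69.2, and 917 bp from that of CG30357 with 60.1. Just past the threshold, listed peaks with scores of 830, 830 and 831 lay nearest to tud, Syn1 and RFeSP, with signals of 74.4, 61.9 and 64.9. At the lower end, marginal peaks with a score of 540 lay nearest to app, Adhr and hep, with signals of 53.6, 49.9 and 62.1. The first peaks outside, with a score of 539, lay nearest to Ptp36E, CG8858 and InR, with signals of 43.5, 53.2 and 50.7. Signals just inside and just outside either end were close to each other and partly overlapped.

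The first comparison concerned the position of the sites relative to genes. Promoters, taken as positions within 1 kb of a TSS of a protein-coding gene, held 854 of the 1665 marginal summits (51.3%, 95% Wilson interval 48.9 to 53.7%), against 2912 of the 3393 listed summits (85.8%, 84.6 to 87.0%). Coding exons held 252 marginal summits (15.1%), against 62 listed ones (1.83%). Introns held 21.3% of marginal and 5.81% of listed summits, intergenic regions 10.5% and 5.66%, and UTRs 1.80% and 0.884%. The lower promoter share passed the two-sided Fisher's exact test on peaks (adjusted p = 4.6e-147, Benjamini-Hochberg over the promoter share and the 10 words). Peaks are the units of this test, so its p-value does not measure variation between embryo collections.

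The marginal range stood inside a gradient. From low to high score, the promoter share was 21.8% for an IDR over 0.2, 37.7% for 0.05 to 0.2, 48.5% in the lower and 56.7% in the upper part of the marginal range, 66.4% in listed peaks scoring under 1000 and 89.9% in those at 1000. The coding-exon share over the same bins was 17.5%, 19.0%, 16.3%, 12.9%, 8.15% and 0.499%. Both marginal bins lay between their neighbours in promoter share.

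**Figure D1:**
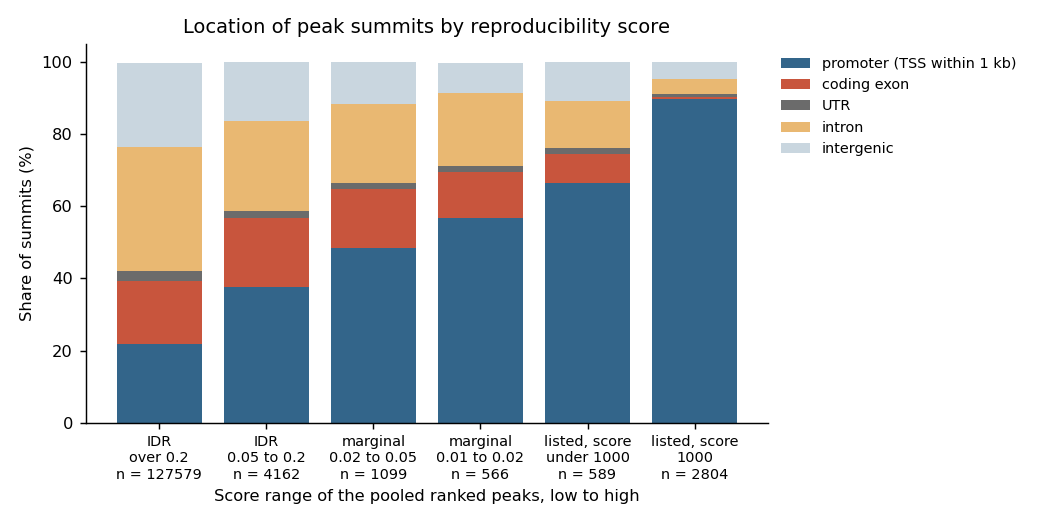
Stacked bars give the percentage of summits in promoters, coding exons, UTRs, introns and intergenic regions, for 6 score ranges of the pooled ranked peaks from low to high, with the number of peaks under each bar. The promoter share was 48.5% and 56.7% in the marginal bars and 89.9% in listed peaks with a score of 1000.

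Marginal promoter summits were also placed differently around the TSS. A TSS lay within 100 bp of 287 of all marginal summits (17.2%), against 2005 of the listed ones (59.1%). Among promoter summits, 330 of 854 marginal ones lay upstream of the nearest TSS (38.6%), against 2126 of 2912 listed ones (73.0%). The median signed position was 51.5 bp downstream for marginal promoter summits and -38.5 bp, on the upstream side, for listed ones. The fullest 50-bp bin ran from 0 to 50 bp downstream for marginal peaks, with 92 summits, and from 50 bp upstream to the TSS for listed peaks, with 902. Over all summits the median distance to a TSS was 924 bp in marginal and 75 bp in listed peaks. TSSs of 2 or more genes lay within 1 kb of 266 marginal promoter summits (31.1%), against 1486 listed ones (51%). These positional values were not tested.

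**Figure D2:**
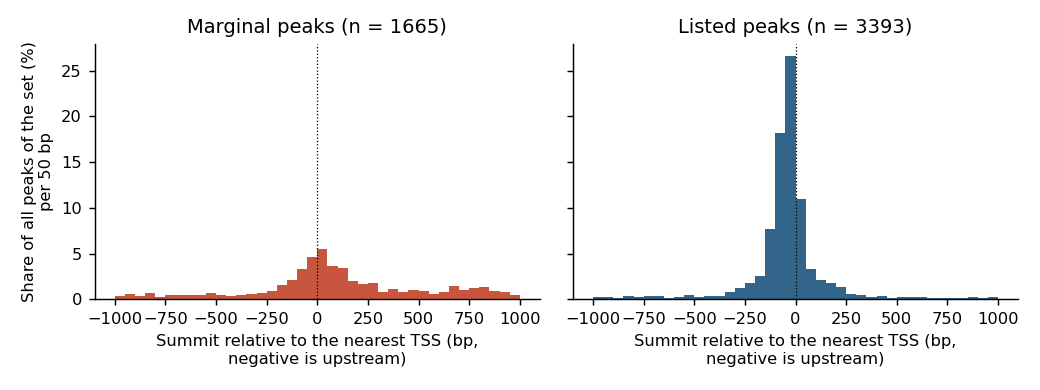
Histograms give the percentage of all peaks of a set per 50 bp against the position of the summit relative to the nearest TSS, with marginal peaks on the left and listed peaks on the right. Marginal summits form a low, broad mound with its fullest bin downstream of the TSS, and listed summits form a narrow peak just upstream of it.

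The base composition at the summits differed in shape. The median GC content of the summit window was 50.5% (quartiles 43.6 and 56.4%) in marginal peaks and 41.6% (35.6 and 48.5%) in listed peaks. In flanks centred 500 bp away the order was turned round, with 41.1% in marginal and 44.6% in listed peaks. The summit window had more GC than the mean of its own flanks in 1284 marginal peaks (77.1%) and 1445 listed peaks (42.6%). Averaged over peaks, marginal GC was highest at the summit itself, at 49.7%, and was lowest 440 bp away, at 40.5%. The listed profile had 42.6% at the summit and its lowest point, 38.7%, at 100 bp from it. Peaks below the marginal range had 47.5% at the summit and 42.6% in the flanks, and listed peaks scoring under 1000 had 47.5% and 41.1%. A summit richer in GC than its flanks was thus shared by the lower ranks and by the lower-scoring listed peaks. Among the score bins, only listed peaks at 1000 had the order turned, with 40.6% and 45.5%.

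**Figure D3:**
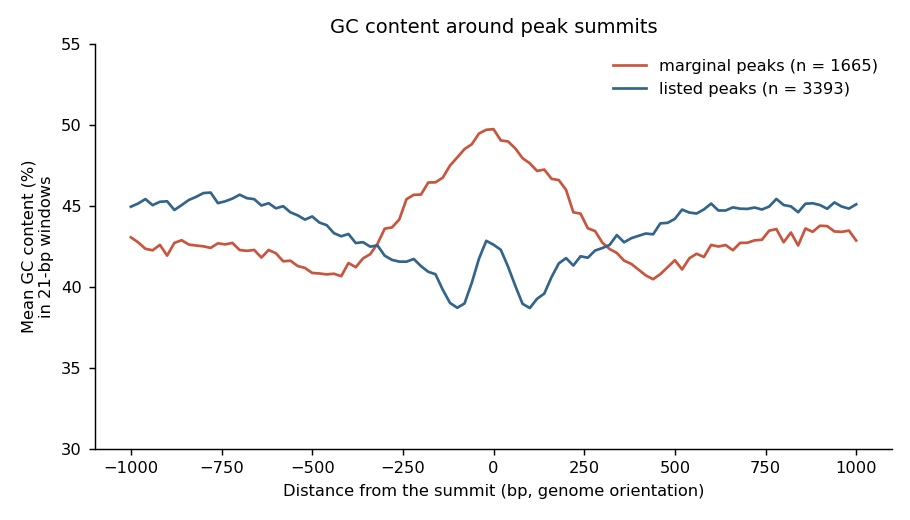
Lines give the mean GC content in 21-bp windows against the distance from the summit in genome orientation, for 1665 marginal and 3393 listed peaks, on an axis that starts at 30%. The marginal line has 1 broad rise to 49.7% at the summit, where the listed line stands at 42.6% between a pair of dips.

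The GC difference was present at promoters and away from them. At promoters the median summit GC was 49.5% in marginal and 41.6% in listed peaks, and away from promoters it was 51.5% and 45.5%. Introns had 47.5% in marginal and 44.6% in listed peaks, and intergenic summits 48.5% and 42.6%. Coding exons had 57.4% in the marginal set and 58.4% in the listed set, so in that class alone the order was the other way. The listed coding exons numbered 62. Windows more than 50% covered by soft-masked repeats were 70 of the marginal (4.2%) and 152 of the listed (4.48%) ones.

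Of the 10 words, TATCGA separated the sets most. It occurred within 50 bp of 94 marginal summits (5.65%, 95% Wilson interval 4.64 to 6.86%), against 1324 listed summits (39.0%, 37.4 to 40.7%), with an adjusted p of 1.5e-161 by two-sided Fisher's exact test. In flanks of the same length 500 bp away, the word was found in 4.59% of marginal and 3.74% of listed windows. The summit share was thus 1.23 times that of the flanks in marginal peaks and 10.4 times in listed peaks. Windows at the summits of peaks below the marginal range held it in 3.17% of cases. Over the score bins from low to high, its share was 3.16%, 3.72%, 4.37%, 8.13%, 11.4% and 44.8%, and the largest step lay within the listed peaks.

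The TATCGA share was also lower where marginal and listed summits had like distances to a TSS or like GC content. With a TSS within 100 bp, 40 of 287 marginal windows held the word (13.9%), against 1135 of 2005 listed ones (56.6%). With a TSS over 100 bp and up to 1 kb away, 19 of 567 marginal windows (3.35%) and 146 of 907 listed ones (16.1%) did. In windows under 40% GC the shares were 26 of 285 marginal (9.12%) and 611 of 1439 listed (42.5%). In windows of 40% to under 50% GC they were 43 of 530 (8.11%) and 577 of 1234 (46.8%), and at 50% GC or more 25 of 850 (2.94%) and 136 of 720 (18.9%). Marginal shares were lower in each of these 5 strata, which were set after the data were seen and were not tested.

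TAATTA, the core of the Engrailed-class site, was found at 55 marginal summits (3.30%, interval 2.55 to 4.27%) and 169 listed summits (4.98%, 4.30 to 5.77%), and its share was lower at marginal summits (adjusted p = 0.026, two-sided Fisher's exact test). Over the score bins from low to high, the share was 4.74%, 3.27%, 2.91%, 4.06%, 3.06% and 5.39%. Listed peaks scoring under 1000 were thus no higher than marginal ones, and the higher listed share came from those at 1000. In the flanks TAATTA was present in 7.6% of marginal and 5.38% of listed windows. The summit share was therefore 0.435 of the flank share in marginal peaks and 0.926 in listed peaks. Listed peaks scoring under 1000 had 3.06% at the summit and 7.47% in the flanks, and those at 1000 had 5.39% and 4.94%. In the bin just under the marginal range the values were 3.27% and 7.03%. A summit share well below that of the flanks was thus not particular to marginal peaks. The TAATTA difference was no longer past the threshold for summits over 1 kb from a TSS, where 3.70% of marginal and 4.57% of listed windows held the word (adjusted p = 0.7, two-sided Fisher's exact test). The call was also lost without replicate 1, with the direction kept: the peaks of replicate 2 gave 4.58% of marginal and 6.39% of listed summits (adjusted p = 0.28, Fisher's exact test), and replicate 1 gave 2.78% and 5.21% (adjusted p = 0.0059, two-sided Fisher's exact test).

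The other 8 words did not pass the test in windows of 50 bp on each side. In windows of 100 bp on each side, the word TAATTG, the word TGATTA and the word AGATAA were lower at marginal summits past the threshold, and the repeat GAGAGA was higher. The homeodomain variants TAATTG and TGATTA were at 6.25% and 3.90% of marginal summits, against 7.13% and 4.72% of listed ones. CAGCTG, an E-box bound by basic helix-loop-helix proteins, was at 6.73% of marginal and 7.40% of listed summits. AGATAA, the site of zinc-finger factors such as Serpent, was at 2.88% of marginal and 3.95% of listed summits (adjusted p = 0.18, Fisher's exact test). GAGAGA, the repeat bound by GAGA factor, was at 4.08% of marginal and 3.21% of listed summits (adjusted p = 0.27, Fisher's exact test). CAGGTA, part of the site of the early activator Zelda, was at 3.06% and 2.42%, CACGTG at 1.92% and 1.41%, and TGACGT at 2.64% and 2.21%, with marginal peaks given first. Any of the 10 words was present at 550 marginal summits (33.0%) and 1981 listed summits (58.4%). A p-value above the threshold does not show that shares are equal, and a matching word is not a bound site.

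All words of 6 letters were then ranked by the ratio of their marginal to their listed share, with words read together with their reverse complement and a share of at least 3% required in either set, which left 1712. The words are named from this ranking, after their values were seen. The lowest ratio, 0.117, belonged to ATCGAT, found at 4.08% of marginal and 35% of listed summits. CGATAG followed at 0.123, with 3.90% and 31.8%, then ACTATC at 0.145 and TATCGA at 0.145. These words overlap one another, so they are not separate observations. The highest ratio, 4.32, belonged to CCAGGA, found at 5.35% of marginal and 1.24% of listed summits, and in 4.11% of the marginal flanks. ATCCTC (3.93), CCGGAG (3.89) and CCCAGG (3.82) came next. The ranking followed base composition in part. Of the 493 words with 3 letters G or C, 67.3% were more frequent at marginal summits, against 1.04% of the 192 words with 1 such letter and 98.8% of the 166 with 5. The 2 lowest words stood apart from this. CGATAG has 3 such letters, a class with a median ratio of 1.16, and ATCGAT has 2, a class with a median of 0.900.

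The marginal peaks were spread unevenly over the chromosomes. The X chromosome held 141 of them (8.47%), or 5.99 per Mb, against 636 listed peaks (18.7%), or 27.0 per Mb. The autosomes had 13.8 marginal and 25 listed peaks per Mb, so the X to autosome ratio of density was 0.434 for marginal and 1.08 for listed peaks. It was 1.04 for the peaks below the marginal range. Among marginal peaks, 3L had 401 (14.3 per Mb), 2R 387 (15.3), 3R 427 (13.3), 2L 300 (12.8) and chromosome 4 only 9 (6.68). Marginal peaks per 100 listed peaks numbered 22.2 on the X and 32.1 on chromosome 4, and 49.8 to 63.1 on the other arms. The X share was 11.9% of marginal and 20% of listed promoter summits, and 4.81% of marginal and 11.4% of listed summits away from promoters.

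Along the ranked list the X share was not graded in 1 direction. From low to high score it was 18.5%, 9.27%, 8.10%, 9.19%, 12.7% and 20%. The lowest values thus lay in the marginal range and the bin just under it. The X made up 17.6% of the length of the 6 arms. The number of X chromosomes in the embryos is not known from the labels, which record sex as not collected, and its part in these shares was not tested.

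**Figure D4:**
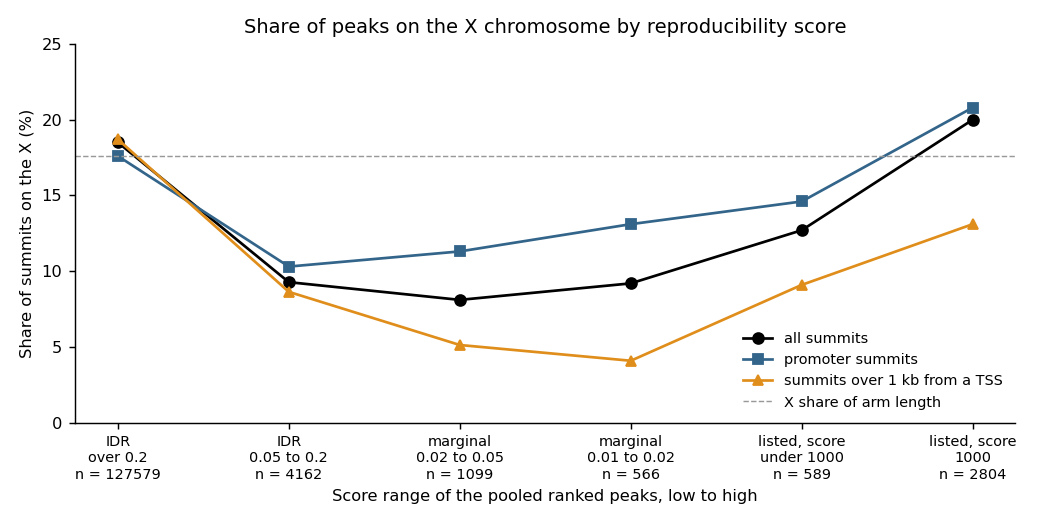
Lines give the percentage of summits on the X chromosome for 6 score ranges from low to high, for all summits, promoter summits and summits over 1 kb from a TSS. The dashed line is the X share of arm length, 17.6%, and the 2 marginal points for all summits stand at 8.10% and 9.19%.

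How each replicate saw the marginal sites was read from its own ranked list, taking the peak that overlapped by the most bases. A ranked peak of replicate 1 overlapped 1631 marginal peaks (98.0%), and one of replicate 2 overlapped 1548 (93.0%). Their median signal was 32.7 (quartiles 25.6 and 40) in replicate 1 and 25.5 (19.5 and 31.3) in replicate 2, against 85.3 and 56.3 at listed peaks. The replicate 1 value was higher at 1003 of the 1515 marginal peaks seen in both (66.2%) and at 2653 of 3290 listed peaks (80.6%). Whether the lists share a scale is not stated, so levels between replicates are not a measured difference. Scores within the replicates' own ranking had medians of 191 in replicate 1 and 63.0 in replicate 2, both far under the marginal range itself. These values rest on the same reads as the pooled score and are a description.

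Marginal peaks overlapped the replicates' thresholded lists more often than ranked peaks at large, although most overlapped none. A listed peak of replicate 1 overlapped 172 marginal peaks (10.3%, against 2.59% of all ranked peaks), and one of replicate 2 overlapped 58 (3.48%, against 1.84%). Listed peaks of both replicates overlapped 18, and 1453 (87.3%) were overlapped by neither, against 97.0% of all ranked peaks and 99.3% of those below the marginal range. In listed peaks, 1714 (50.5%) were overlapped by both and 531 (15.6%) by neither. The conservative pooled list, the authors' stricter thresholded set, overlapped 69 marginal peaks (4.14%), and the pooled list itself overlapped 38 (2.28%). The pooled list made up 3393 of the 136905 ranked peaks. Each of those overlaps itself, so the share over all ranked peaks is no measure for this overlap. Of the 131741 peaks below the marginal range, 130494 overlapped no peak of any of the 4 lists, the pooled list included. For the conservative list, and for both replicates' lists at once, the share over all ranked peaks was not computed. None of these 4 lists overlapped 1418 marginal peaks (85.2%), against 96.4% of all ranked peaks and 99.1% of those below the range. Peaks of the same reads are not independent, so no test was made.

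The 18 marginal peaks found in both replicates' lists all lay at promoters, and 1 of them held TATCGA. Of the 154 in the list of replicate 1 only, 121 lay at promoters (78.6%), and of the 40 in that of replicate 2 only, 18 did (45.0%). Among the 1453 in neither list, 697 did (48.0%).

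When the same score range was taken from each replicate's own ranked list, replicate 1 gave 936 marginal peaks beside 2858 listed ones, and replicate 2 gave 612 beside 2129. The promoter share was 64.1% of marginal and 91.8% of listed peaks in replicate 1, and 56.5% and 87.6% in replicate 2. TATCGA was at 8.55% of marginal and 43.0% of listed summits in replicate 1, and at 16.5% and 46.5% in replicate 2. Median summit GC was 49.0% and 41.6% in replicate 1 and 44.6% and 39.6% in replicate 2. The X held 9.19% of marginal and 19.5% of listed peaks in replicate 1, and 15.4% and 19.8% in replicate 2. All 4 differences kept their direction in both replicates. Those of TATCGA, GC content and the X share were smaller in replicate 2, and that of the promoter share was larger, contrasts that were not tested.

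**Figure D5:**
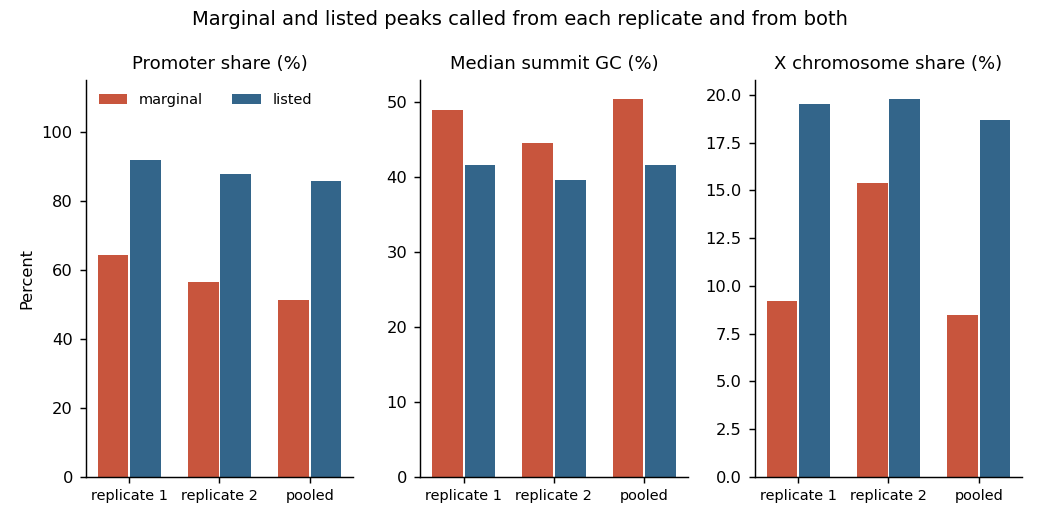
Bars give the promoter share, the median GC content at the summit and the X chromosome share, in percent, of marginal and listed peaks called from replicate 1, replicate 2 and both pooled. In each of the 9 pairs the marginal and listed bars stand in the same order for a given measure, and the X shares lie closest in replicate 2, at 15.4% and 19.8%.

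Of the 10 strongest marginal peaks, 9 lay at promoters. The highest signal, 338, belonged to a peak of score 817 at chr3R:15408236-15408717, 188 bp from a TSS of Atx2, which encodes an RNA-binding protein. Its signals were 459.8 in replicate 1 and 221 in replicate 2, it overlapped the list of each replicate, and a listed summit lay close by. The second, at 110.0, lay 12 bp from the TSS of hd (humpty dumpty), with 45.2 in replicate 1 and 59.1 in replicate 2, and also overlapped both replicates' lists. The gap between the first and the second peak was larger than that between the second and the tenth, which had 93.8.

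The rest of the 10 strongest covered several functions. Peaks at frj (103), rgr (101), Vps33B (101) and Alr (98.3) came next, and Vps33B encodes a protein of vesicle transport. The peak at Clp, an RNA-binding protein of mRNA cleavage and polyadenylation, had 97.6. That at Pdhb, a subunit of pyruvate dehydrogenase, had 97.3, and that at Tip60, a histone acetyltransferase, had 94.4. The peak of 93.8 had an intronic summit 3922 bp from the nearest TSS, one of SNF4Agamma, the gamma subunit of AMP-activated protein kinase. Of the 10, 3 held TATCGA, at Atx2, Clp and Tip60. At frj and Vps33B, listed summits lay 228 and 199 bp away.

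Among marginal peaks that overlapped no peak of any of the 4 lists, the strongest was the one at Alr. The next were a coding-exon summit 2792 bp upstream of the nearest TSS, that of Argk2, an arginine kinase gene, with 88.3, and the promoter of nuf, a Rab11 partner in recycling endosomes, with 85.4. The promoter of Gpdh1, glycerol-3-phosphate dehydrogenase, had 84.8, with 71.8 in replicate 1 and 9.19 in replicate 2. RhoGAP18B (83.4) was seen in the ranked list of replicate 1 and not in that of replicate 2, and CG1090 (83.2) in that of replicate 2 and not in that of replicate 1. The peak at so (sine oculis), a homeodomain regulator of eye development, had 82.5, with 50 and 26.6 in replicates 1 and 2. Tsp42Ec, a tetraspanin gene, had 81.7, robo2, a receptor for the axon guidance cue Slit, had 81.2, and Myd88, an adaptor of Toll signalling, had 80.1. None of these 10 held TATCGA.

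Marginal summits lay nearer to listed ones than lower-ranked summits did. The median distance to the nearest listed summit was 8468 bp for marginal peaks and 19279 bp for peaks below the range. Within 2 kb of a listed summit lay 302 marginal summits (18.1%) and 8.63% of the summits below the range, and over 10 kb away lay 771 (46.3%) and 66.0%. These shares were not tested. Of the 854 marginal promoter summits, 708 (82.9%) were at a TSS with no listed summit within 1 kb. Counting each gene with 2 kb on either side, 2261 of 13945 protein-coding genes had a marginal summit (16.2%), and 5261 had a listed one (37.7%). A marginal and no listed summit was found at 1132 genes (8.12% of all). A summit in a gene or near it was not tied to that gene by any measurement.

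Several genes held many marginal summits. SNF4Agamma on 3R had 7 over 73.5 kb, with signals from 29.2 to 93.8, beside 2 listed summits. CG32982 on 2L had 6 with signals from 35.3 to 76.5 and no listed summit. A pair of genes on 2R had 6 each beside 3 listed ones: lola, a zinc-finger regulator of axon growth, and mam, the Notch co-activator mastermind. Eip74EF, an ETS-domain gene of the ecdysone response, and gukh had 5 each. These genes were long, from 38.0 to 73.5 kb, against a median of 2.17 kb over all protein-coding genes. Overlapping peaks count separately, and the 7 summits of SNF4Agamma fell into 5 merged regions.

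At en and inv themselves, named because Invected was the tagged protein, marginal peaks stood beside listed ones. The 2 genes with 20 kb on either side held 5 marginal and 9 listed summits, and the marginal signals ran from 7.90 to 69.8. The marginal summit at inv lay 75 bp from its TSS, with a pooled signal of 34.1, a replicate 1 signal of 25.7 and a replicate 2 signal of 43.3. Next to en, summits 753 and 1025 bp upstream of the TSS had pooled signals of 7.90 and 22.6, and both overlapped the same replicate 2 peak with a signal of 39.4 and no ranked peak of replicate 1. The window 1025 bp upstream held TAATTA. These 2 peaks at en overlapped each other, and their summits lay 665 and 393 bp from the nearest listed summit. The summit at inv lay 206 bp from a listed one. The remaining pair, at 69.8 and 54.6, lay in coding exons with E(Pc) as the nearest TSS. In the wider segment polarity list, 3 of 13 genes had a marginal summit (en, inv and nkd, the nkd summit with the highest signal being nearest to a TSS of SmydA-2), and each of them also had a listed one. Hence 0 of the 13 had a marginal summit alone.

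Patterning genes that had a marginal and no listed summit were read against 8.12% of all protein-coding genes. In the list of genes known to be regulated by Engrailed, 2 of 13 (15.4%) did. They were dpp, the BMP-type ligand, with a signal of 69.7 at a summit 539 bp from its TSS, and Con (Connectin), a cell adhesion gene, with 52.5 at 80 bp. The dpp peak had 49.7 in replicate 1 and 21.4 in replicate 2, and the Con peak had 35.3 and 22.6. Neither overlapped a listed peak of a replicate. These counts are small, and the lists' genes were longer than average, with a median of 13.7 kb for this list.

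Other lists of patterning and homeobox genes were similar in size of count. Of 8 Hox genes, 2 (25%) had a marginal summit alone, with 76.2 at an intronic summit in Scr and 60.0 at the promoter of Dfd, 113 bp from its TSS. Of 12 genes in the list named gap and terminal, 3 did (25%). They were bcd with 79.6 at 72 bp from its TSS, tor with 52.5 at 1326 bp, where the nearest TSS was that of CG1941, and Kr with 42.4 at 4 bp. Of 8 pair-rule genes, 2 did (25%), hry with 66.3 at 36 bp and opa with 64.1 at 283 bp, both with a score of 823. Of 41 other homeobox genes, 8 did (19.5%), led by so (82.5), Dll (67.5, 92 bp from its TSS) and zfh2 (63.5, intronic). The Hox genes had a median length of 30.6 kb, and the list named gap and terminal and the pair-rule genes had 3.5 and 3.16 kb. The part of gene length in these counts was not tested.

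Signalling pathways were represented by few genes each. In the Hedgehog list 3 of 17 genes (17.6%) had a marginal summit alone. They were ttv and sotv, which encode enzymes of heparan sulphate synthesis, with 68.2 and 55.5, and fu, the pathway kinase, with 60.0 at a summit nearer to the TSS of CG6659. In the Dpp list 4 of 14 (28.6%) did, led by Med, a Smad, with 71.0, sog, an extracellular Dpp antagonist, with 70.9, and dpp. The Med summit lay nearest to a TSS of Mnat9. In the Wnt list 2 of 22 (9.09%) did, wls (65.0) and Notum (57.5), and both summits lay nearest to another gene's TSS. In the EGFR list 2 of 10 (20%) did, Egfr (54.1) and aop, the ETS repressor Yan (49.5), the Egfr summit lying 13471 bp from its own TSS and nearest to that of twz. In the Notch list 2 of 13 (15.4%) did, the glycosyltransferase gene fng (54.8) and numb (42.6). For the axon guidance list it was 3 of 19 (15.8%), robo2 (81.2), Sema1b (66.9, nearest TSS that of CG42561) and robo3 (66.2).

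Among the remaining lists, 2 of 20 Polycomb and Trithorax genes (10%) had a marginal summit alone, caly (62.4, nearest TSS that of CG42837) and Psc (57.3). It was 2 of 19 for neuroblast genes, mira (58.8, nearest TSS that of CG4459) and nub (47.2). It was 1 of 7 in the list named endoderm, pnr (62.1, with the summit 8043 bp from its own TSS and nearest to that of Jhbp4). For germline genes it was 1 of 10, stau (70.7). None of 14 muscle, 8 tracheal, 9 hemocyte and 9 yolk and chorion genes did. Chemoreceptor genes had 9 of 180 (5%), led by Gr28a (77.3), Gr47b (67.4) and Or46a (66.9), and at each of these 3 the nearest TSS was that of another gene. Ribosomal protein genes had 4 of 86 (4.65%), including RpS26 (82.9) and RpL22 (69.2). In that list 60 genes (69.8%) already had a listed summit, which leaves fewer that could have a marginal one alone. No list was tested, and the shares are not called different from the background.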

How the data were processed

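The 2 samples were chromatin immunoprecipitations of Inv-eGFP from embryos, sonicated to 200 to 800 bp per the labels. The aligner and the peak caller are not stated in the labels, and depth is unknown. Each deposited list is on dm6 and gives, per peak, the authors' score (rescaled IDR, in whole numbers), a signal value (peak height, scale not stated) and, in ranked lists, the −log10 IDR, as deposited by the authors. Per the labels, ranked lists were thresholded on IDR. Control libraries were not analysed here.

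Members were the rows of the pooled ranked list, the one containing the whole thresholded list, with scores of 540 to 829 on 6 arms. The members, gene lists and tests were chosen with earlier results of these data known. TSSs of 13945 protein-coding genes came from Ensembl release 115 and sequence from the Release 6 genome of RefSeq. Summits were classed as promoter first, then coding exon, UTR, intron and intergenic. GC content and 10 words were read 50 bp on each side of the summit and in flanks centred 500 bp away. Overlap meant at least 1 bp, and a replicate's value at a marginal peak is that of its ranked peak with the largest overlap, which may differ from its listed one. Fisher's exact test (two-sided) compared marginal with listed shares, adjusted over 11. Code was tested on simulated data. The alternatives were other windows, TSS sets, score ranges, the other pooled list, each replicate alone and merged regions. Named genes were those nearest to the 10 strongest marginal peaks, to the 10 strongest in no list and to the 3 at each end, the 5 genes with most summits with ties, and up to 3 per list that had a marginal summit alone. Python 3.11.15, numpy 2.4.6, scipy 1.17.1 and pandas 2.3.3 were used. A gene and a window that the naming rules select are not reported here.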

Additional observations from a re-analysis of the deposited data

Results flagged for a closer look

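Outside the 6 chromosome arms, 23 further ranked peaks had scores in the marginal range, on 23 other sequences of the assembly. They were in no comparison above and stand out only as signal in data that the comparisons did not use. No control sample gave a level to set them against.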

How the results depend on the processing

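The lower promoter share and the lower TATCGA share at marginal summits kept their direction and passed the test under all 10 alternatives each, with ranges of 36.9 to 65.3% and 4.32 to 16.5%. The lower TAATTA share did so in 7 of 10. It missed the threshold at an IDR up to 0.02 (4.06%, adjusted p = 0.49, two-sided Fisher's exact test) and over 1 kb from a TSS (3.70%, adjusted p = 0.7), and ran from 2.78% to 4.58% with a replicate left out. The number of marginal peaks was 566 at an IDR up to 0.02, 1099 over 0.02, and 612 to 936 with a replicate left out. Leaving out a replicate gave a median GC of 44.6 to 49.0%, an X share of 9.19 to 15.4% and an overlap with listed peaks of 1.60 to 2.61%. The overlap was 3.33% in the other pooled ranked list and 1.02% with 50% of the peak required. That other list was read with its own 1321 peaks in the score range, among them 382 of the marginal peaks described above. Genes with a marginal summit alone numbered 425 at an IDR up to 0.02, by fewer peaks. For the other 8 words, 47 of 64 alternatives changed nothing, 6 brought the difference past the threshold and 11 turned its direction, none of these past it. The 6 were, in windows of 100 bp on each side, TAATTG (12.3% against 16.1%), TGATTA (6.79% against 9.40%), GAGAGA (8.59% against 6.75%) and AGATAA (6.73% against 8.52%), and AGATAA in the other ranked list (2.42% against 4.20%) and with 1 summit per merged region (2.47% against 3.95%). The turned values were TAATTG at 7.34% in the other ranked list, TGATTA at 4.95% for an IDR up to 0.02, CAGGTA at 2.27% and CACGTG at 1.44% in the other list, and CACGTG at 3.12% within 100 bp. With a replicate left out, the ranges that held a turned value were 5.77 to 8.01% for TAATTG, 7.05 to 7.52% for CAGCTG, 1.71 to 2.29% for CAGGTA, 0.654 to 1.28% for CACGTG and 2.14 to 2.94% for TGACGT. Location splits, and the alternatives of the X share and the other words, were added after the data were seen. The cause of these changes was not tested. Leaving out a replicate used that of the other alone, so no spread between replicates enters any p-value. Depth is unknown, so no value has a limit set by depth.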
